A study of Mus musculus with 2 samples.

Results

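Listings of N6-methyladenosine (m6A) were followed along 10 genes of Nodal and BMP signalling: Nodal, Lefty1, Lefty2, Smad2, Smad4, Smad7, Skil, Tgif1, Id1 and Id3. The genes were chosen by their place in the pathway and with the listed positions of these same data known, so the listings that chose them are given as a description with no test. A listed position was counted where a unique chromosome, base and strand lay within an exon of a member gene on its strand. The 10 genes held 184 of the 160430 positions of the whole series, in 9 genes, while Id3 held 0, and the series had listed positions in the exons of 10912 genes. The positions came from 17 lists by 10 tools that read m6A from nanopore direct RNA sequencing (DRS), in which native poly(A) RNA passes through the pore without being copied. RNA came from mouse 129 embryonic stem cells (ESCs), wild type (WT) or with a knockout (KO) of Mettl3, the catalytic subunit of the main mRNA m6A methyltransferase, with 1 library for each. The KO line lacks exons 5 to 7 of Mettl3 on both alleles and carries drug resistance genes (puromycin, hygromycin) in their place, an edit made with CRISPR-Cas9 and followed by selection. No other allele, treatment or time point is given for either group.

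Nodal is a secreted ligand of the TGF-beta family that patterns the early embryo and helps set the state of ESCs. It acts through activin receptors and the co-receptor Cripto (Tdgf1), which lead to phosphorylation of Smad2 and its binding to Smad4. Lefty1 and Lefty2 are secreted antagonists of Nodal, and Smad7 blocks signalling at the receptor. Skil (SnoN) and Tgif1 are co-repressors that act with Smad proteins on DNA, and Id1 and Id3 are classic targets of the BMP branch, which holds mouse ESCs in self-renewal. m6A is placed mostly in the motif RRACH (R is A or G, H is A, C or T), and its density in mRNA is known to rise around the stop codon.

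The sequences below show sites on which the description turns: well supported WT or comparison sites of Nodal, Tgif1 and Lefty2, the best supported site of Lefty1 for comparison with Lefty2, a pair of neighbours that differed in KO, and the Tgif1 site with most tools in KO. Each is 21 nt of the GRCm38 genome in the sense of the mRNA, 5′ to 3′, with the 5-mer around the listed A in capitals.
Nodal 61424605, coding, all tools, chr10:61424595-61424615, plus strand: caccacaaGGACAtgattgtg
Nodal 61424572, coding, chr10:61424562-61424582, plus strand: ctttatgtGGACAatggcagg
Nodal 61423093, coding, chr10:61423083-61423103, plus strand: ggccccatGGACAtacccact
Nodal 61423282, coding, chr10:61423272-61423292, plus strand: tggctaaaGGACCccagggca
Nodal 61423472, coding, chr10:61423462-61423482, plus strand: cccaggagGGACAgctgtctg
Nodal 61425250, 3′ UTR, most tools of this gene in KO, chr10:61425240-61425260, plus strand: ccaagaggGGACTggccatgg
Nodal 61425264, 3′ UTR, not in KO, chr10:61425254-61425274, plus strand: gccatggtGGACTttagaagc
Lefty2 180897978, 3′ UTR, not in KO, chr1:180897968-180897988, plus strand: ttagccaaGGACAtggctatg
Lefty1 180938246, 3′ UTR, chr1:180938236-180938256, plus strand: caaaccaaGGACAgaatcccc
Tgif1 70846350, coding, most tools in KO, chr17:70846340-70846360, minus strand: gacagcatGGACAgtcccctg
Tgif1 70844863, coding, chr17:70844853-70844873, minus strand: tacccagaGGACActtgcaaa
Tgif1 70845075, coding, not in KO, chr17:70845065-70845085, minus strand: gcgtagttGGACCcaacccaa
Tgif1 70844396, 3′ UTR, not in KO, chr17:70844386-70844406, minus strand: atgttccaAGACTgtgcaata

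Separate lists for WT and for KO came from 7 tools (xPore, Epinano, ELIGOS, m6Anet, Nanom6A, MINES and Tombo). The comparison tools DRUMMER, DiffErr and Nanocompore gave a single list for both libraries together. A position in any WT list or comparison list is called a WT or comparison position here, and the number of the 10 tools that listed it is its support. The comparison lists carry no column for the direction of change. Per the methods, DiffErr and DRUMMER sites with an odds ratio at or below parity got the lowest score, so their lists run in 1 direction, while no such step is given for Nanocompore. xPore also takes both libraries as input, although its sites are listed for WT and KO apart, and here it is counted among the tools with a list for each. Its sites with a higher methylation rate in KO than in WT were likewise set to the lowest score in the methods, and how its KO list was drawn up is not given in the sources used here, so what an xPore KO listing stands for is unclear. The lists hold no read number, score or methylation rate, so the depth at a site is unknown, and a position that was not listed cannot be told apart from one with few reads. DRS reads start at the 3′ end of the RNA. No test of a condition is possible with 1 library each, and intervals are Wilson 95% intervals that cover counting error only. At Mettl3 itself, the replaced exons held 2 WT or comparison positions and 0 KO positions, and the other exons held 11 and 5. Of 10 markers of ESCs, 9 had positions in both WT or comparison and KO lists, and the exception was Lin28a. Of 6 fibroblast markers, 1 had WT or comparison positions and 2 had KO positions. Of 4 endoderm, 3 early mesoderm and 3 neural markers, 1 each had WT or comparison positions and none had KO positions. The share of all annotated genes with a listed position was not counted, so the marker counts have no background.

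Across the 10 genes, 155 positions were WT or comparison positions and 126 were KO positions. Both applied to 97, 58 were in WT or comparison lists only and 29 were in KO lists only. The share of WT or comparison positions that a KO list also held was 62.6% (54.7% to 69.8%), against 59% over all 129045 WT or comparison positions, so the members lay near the background. Of the 97, 64 were in KO lists of Tombo or Nanom6A and of no other tool, a share of 65.98% against 64.2% over all such positions. By tool, 51 of the 81 Tombo WT positions of these genes recurred in its KO list (63.0%, all positions 59.7%), 34 of 54 for Nanom6A (63.0%, all positions 65.4%) and 14 of 52 for m6Anet (26.9%, all positions 34.4%). For Epinano this was 10 of 56 (17.9%, all positions 16.5%), for ELIGOS 2 of 16 (12.5%, all positions 11.5%), for MINES 6 of 11 (54.5%, all positions 40.2%) and for xPore 1 of 11 (9.09%, all positions 24.9%). With 16 or fewer WT positions in these genes for ELIGOS, MINES and xPore, their shares are imprecise.

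**Figure D1:**
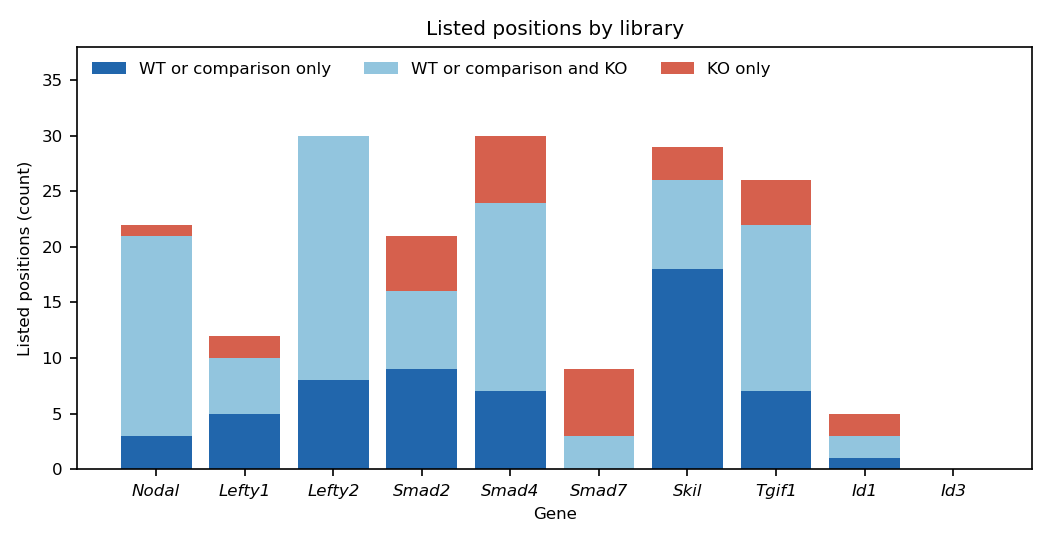
Number of unique listed positions (vertical axis, count) in the exons of each gene (horizontal axis), stacked by whether a position was in WT or comparison lists only, in both, or in KO lists only. Lefty2 and Smad4 had 30 positions each, Skil had the most in WT or comparison only (18), and Smad7 had 6 in KO only and 0 in WT or comparison only.

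Nodal (ENSMUSG00000037171, chromosome 10, 61417972 to 61425338, plus strand), the ligand, had 21 WT or comparison positions and 19 KO positions, 18 of them shared. Its transcript ENSMUST00000049339 has 3 exons and 28 RRACH 5-mers, of which 21 were listed in WT or comparison (75.0%). All 8 RRACH 5-mers of the 3′ UTR were listed, 13 of the 16 in the coding sequence, and 0 of the 4 in the 5′ UTR. The position 61424605, in exon 3 and 29 nt before the stop codon, was listed in WT or comparison by all 10 tools. In KO the same base was listed by Tombo and Nanom6A. A position listed by all 10 tools was found in 60 of the 9803 genes with WT or comparison positions (0.612%). Upstream of it in the same exon, 61424572 was listed by 9 tools, all but Nanocompore, and in KO by Nanom6A alone. In exon 2, 61423093 was listed by 8 tools and in KO by Tombo, Nanom6A and Epinano, and 61423282 was listed by 8 tools, all 3 comparison tools among them, and in KO by xPore alone. The position 61423472 was listed by 6 tools (Tombo, Nanom6A, m6Anet, Epinano, xPore and Nanocompore) and in no KO list.

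Nodal held 9 of the 13 positions that a comparison list placed in these genes. Nanocompore listed 7, and DiffErr and DRUMMER listed 4 each, while 2 positions, 61423282 and 61424605, were in all 3. Of the WT or comparison positions of the 10 genes, 8.39% were in a comparison list (4.97% to 13.8%), against 2.45% over all positions. At the far end of the 3′ UTR, 61425250 and 61425264 lie 616 and 630 nt after the stop codon, both in a GGACT 5-mer. The first was listed by Tombo, MINES and m6Anet in WT and by the same 3 and Nanom6A in KO. The second was listed by Tombo, Nanom6A, m6Anet, xPore and Nanocompore and in no KO list. The neighbours thus had opposite listings in KO in spite of the same 5-mer.

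**Figure D2:**
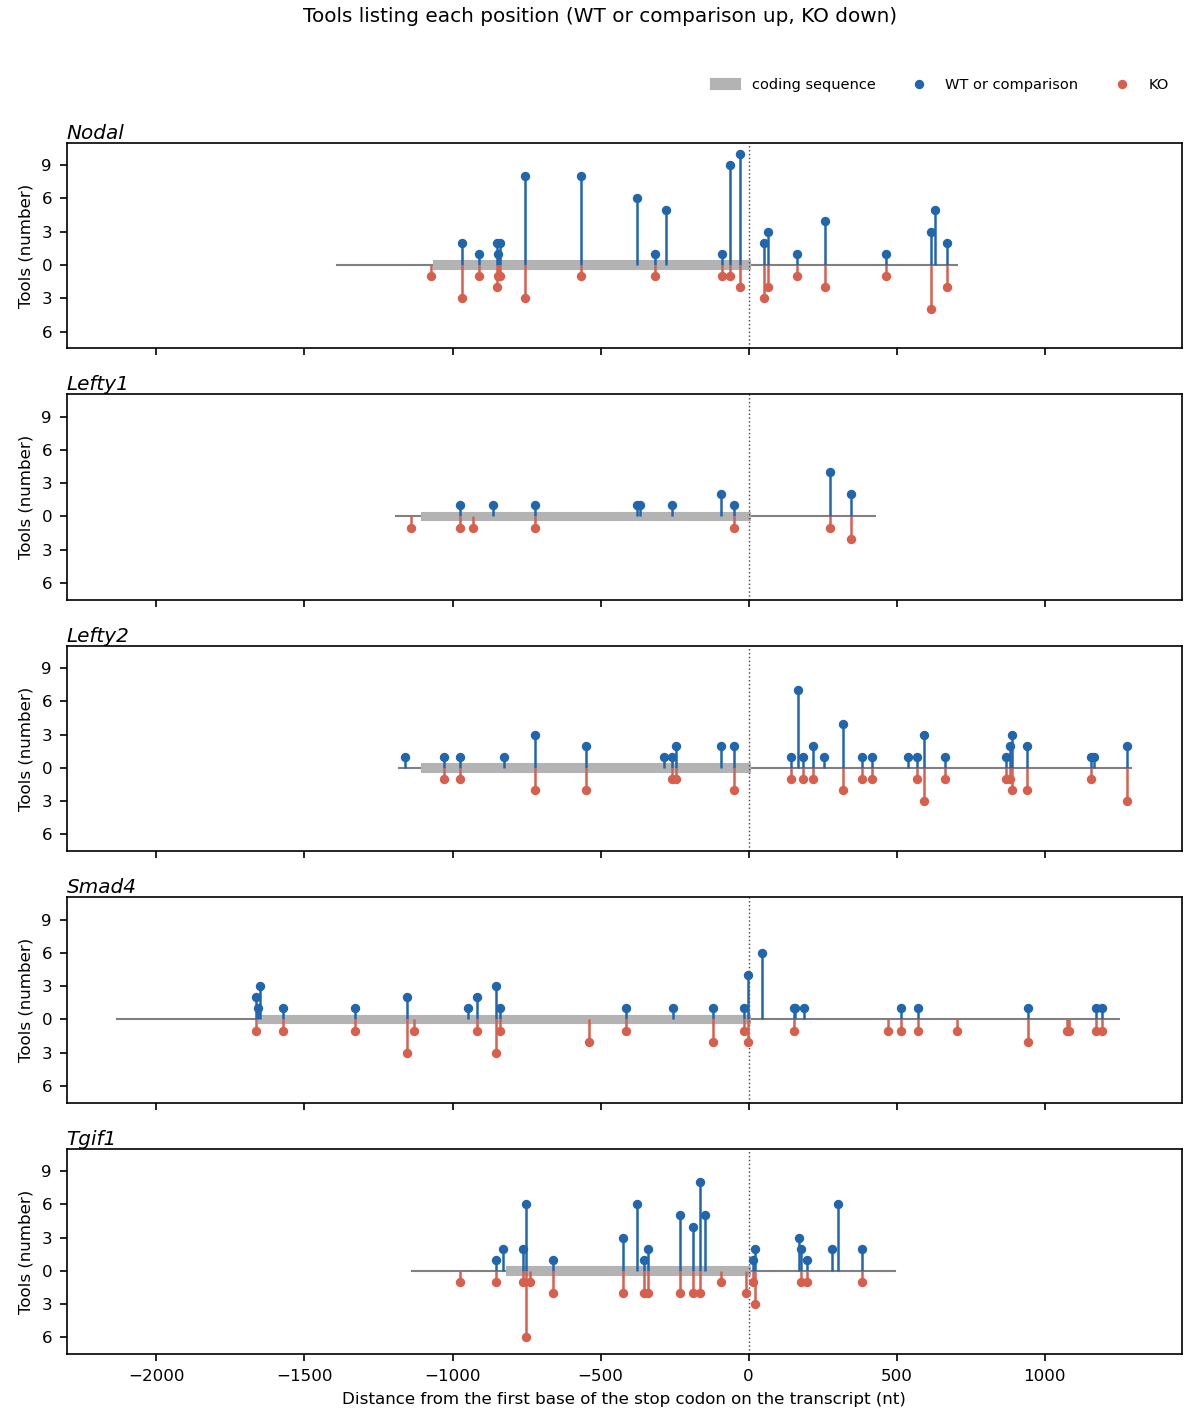
Number of tools (vertical axis) that listed each position in WT or comparison (blue, upward) and in KO (red, downward), by its distance in nt along the transcript from where the stop codon starts (horizontal axis), with the coding sequence as a grey bar. The tallest upward line is that of Nodal 29 nt before the stop codon with 10 tools, and the longest downward line is that of Tgif1 752 nt before the stop codon with 6 tools.

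Lefty1 (ENSMUSG00000038793, chromosome 1, 180935022 to 180938400) and Lefty2 (ENSMUSG00000066652, chromosome 1, 180893108 to 180899103), the antagonists, lie near each other on the plus strand and had different listings. Lefty2 had 30 WT or comparison positions, 22 of which were also KO positions, and 0 in KO only. Lefty1 had 10 WT or comparison positions and 7 KO positions, with 5 shared. Nanom6A listed 26 Lefty2 positions in WT and 16 in KO, all 16 of them among the 26, and listed 0 Lefty1 positions in either library. m6Anet did list Lefty1, at 5 positions in WT and 3 in KO with 0 shared, and Lefty2 at 11 and 8 with 5 shared. Over all genes, 12.1% of the 4497 genes with an m6Anet WT position had none in either Nanom6A list.

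The best supported Lefty2 position was 180897978, in the 3′ UTR 167 nt after the stop codon. It was listed by Tombo, Nanom6A, m6Anet, ELIGOS and all 3 comparison tools, and in no KO list. Most tools in KO, 3, were reached by 2 Lefty2 positions: 180898403, listed by Tombo, Nanom6A and m6Anet in both libraries, and 180899088, listed by these 3 in KO and by Tombo and Nanom6A in WT. In Lefty1 the best supported position was 180938246, 273 nt after the stop codon, with Tombo, MINES, m6Anet and Epinano in WT and Tombo in KO. No Lefty1 position was in a comparison list. The coding sequences of both genes were 91.9% identical over 1107 aligned bases, and 508 of the 1600 windows of 21 nt in the Lefty1 transcript (31.8%) also occurred in Lefty2. At 5 of the 12 Lefty1 positions the aligned base of Lefty2 was listed too, in 4 of these 5 with the same 21-nt window in both genes, and from which gene the reads at those bases came was not tested. The best supported sites of both genes lie in the 3′ UTR. The window of Lefty1 180938246 did not occur in the Lefty2 transcript, and the base of Lefty2 aligned to it has no RRACH.

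The Smad genes of the set all lie on chromosome 18 and differed in their lists. Smad4 (ENSMUSG00000024515, 73639009 to 73703780, minus strand), the common partner of receptor-activated Smads, had 24 WT or comparison positions and 23 KO positions, 17 of them shared. Its best supported position, 73640215, lies in exon 12 in the 3′ UTR, 45 nt after the stop codon, and was listed by Tombo, Nanom6A, m6Anet, ELIGOS, Epinano and xPore in WT but was absent from all KO lists. At 73640262, 2 nt before the stop codon, 4 tools listed WT and Tombo and Nanom6A listed KO. The Smad4 position with most tools in KO that comes first on the transcript, 73662821 in exon 5, was listed by Tombo, MINES and m6Anet in KO and by Tombo and m6Anet in WT. None of the 30 Smad4 positions was in a list of Nanocompore, DiffErr or DRUMMER, while xPore, which also uses both libraries, listed 2 in WT, 73640215 and 73677907, and 0 in KO. m6Anet listed 12 positions of Smad4 in WT and 5 in KO, with 4 shared.

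Smad2 (ENSMUSG00000024563, 76241580 to 76310963, plus strand), which carries the Nodal signal, had 16 WT or comparison positions and 12 KO positions, with 7 shared. All of them came from Tombo or Epinano, and no position had more than 2 tools. Support of 2 was reached at 76304791 and 76304945, which lie 63 and 217 nt after the stop codon. Tombo and Epinano listed both in WT, and no KO list held either. The most distal listed position of Smad2 lay 891 nt after the stop codon, and the 5344 nt of annotated 3′ UTR beyond it held 65 RRACH 5-mers, none of them listed in either library. Smad7 (ENSMUSG00000025880, 75367529 to 75395935, plus strand), the inhibitory Smad, had 3 WT or comparison positions and 9 KO positions, with all 3 shared. Tombo listed 2 Smad7 positions in WT and 8 in KO. The position 75395198 was listed by Tombo and MINES in both libraries, and 75394911 by Tombo and Epinano in WT and Tombo in KO. More KO than WT or comparison positions were found in 29% of all genes with a listed position, and among the 9 listed genes here in Smad7 and Id1.

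**Figure D3:**
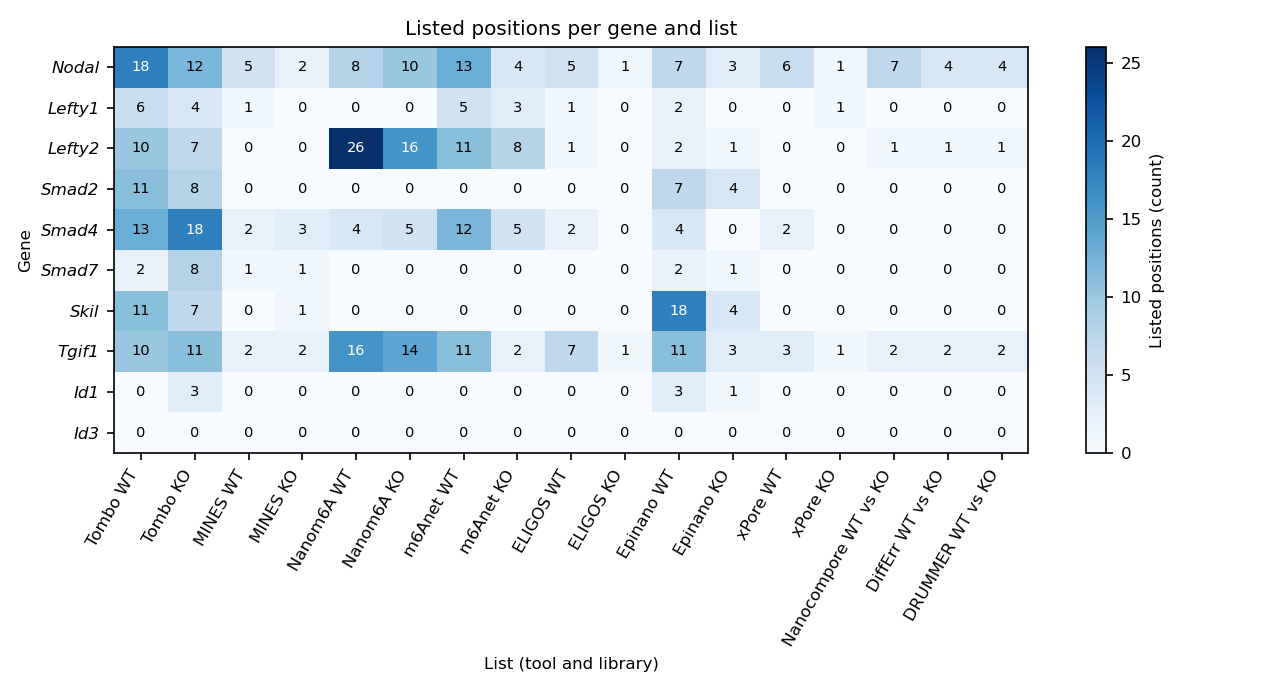
Number of listed positions (colour and printed count) for each gene (rows) in each of the 17 lists (columns, tool and library, with WT vs KO for the comparison tools). Nodal, Lefty2 and Tgif1 are the genes with counts above 0 in the comparison lists, and Nanom6A, m6Anet, xPore and ELIGOS have counts of 0 for Smad2, Smad7, Skil, Id1 and Id3 in both libraries.

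Tgif1 (ENSMUSG00000047407, chromosome 17, 70844205 to 70853546, minus strand), a homeodomain co-repressor of Smad2 and Smad4, had 22 WT or comparison positions and 19 KO positions, 15 of them shared. Its transcript ENSMUST00000059775 has 3 exons and 31 RRACH 5-mers, of which 21 were listed in WT or comparison (67.7%), with 8 of 8 in the 3′ UTR and 11 of 17 in the coding sequence. Over the exons of all its annotated transcripts, 23.9% of 92 RRACH 5-mers were listed, and the median over genes with a WT or comparison position was 22.2%. The position 70846350, in exon 2, was listed in WT by all 6 single-mode tools, which work on 1 library at a time (Epinano, ELIGOS, m6Anet, Nanom6A, MINES and Tombo). The same 6 tools listed it in KO, and neither xPore nor a comparison tool listed it. A position listed in both libraries by at least 6 tools was found in 5 of 9803 genes (0.051%), Tgif1 among them. No other position of the 10 genes was listed in both libraries by at least 4 tools.

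The other well supported Tgif1 positions lie in exon 3. At 70844863, 164 nt before the stop codon, 8 tools listed WT or comparison, with all 3 comparison tools among them, and Tombo and Nanom6A listed KO. At 70845075, 6 tools (Nanom6A, m6Anet, ELIGOS, Epinano, DiffErr and DRUMMER) listed WT or comparison and none listed KO. At 70844396, in the 3′ UTR 303 nt after the stop codon, Tombo, Nanom6A, m6Anet, Epinano, xPore and Nanocompore listed WT or comparison and none listed KO. The position in exon 2 therefore differed from these in its KO listing, with 6 tools against 2 at 70844863 and 0 at both others. By tool, m6Anet listed 11 positions of Tgif1 in WT and 2 in KO, ELIGOS 7 and 1, and Epinano 11 and 3. Tombo listed 10 in WT and 11 in KO, and Nanom6A 16 and 14. xPore listed 3 and 1, and MINES listed 2 in each. Over all genes, the ratio of KO to WT positions was 0.259 for ELIGOS, 0.339 for Epinano, 0.446 for xPore and 0.58 for m6Anet, against 0.703 for MINES, 0.831 for Nanom6A and 0.905 for Tombo, so shorter KO lists from the first 4 of these tools were not particular to Tgif1.

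Skil (ENSMUSG00000027660, chromosome 3, 31095058 to 31122577, plus strand), the co-repressor SnoN, had 26 WT or comparison positions and 11 KO positions, with 8 shared and 18 in WT only. Its share of WT or comparison positions also in KO, 30.8%, was the lowest of the 9 listed genes. The median over genes was 57.9%, and 23.3% of genes with a WT or comparison position had a lower share than Skil. Epinano listed 18 Skil positions in WT and 4 in KO, Tombo listed 11 and 7, and MINES listed 1 in KO. Nanom6A, m6Anet, ELIGOS, xPore and the comparison tools listed 0 in Skil. Taken 1 at a time, each of these tools also missed most listed genes of the series in its WT or comparison list. Nanom6A had WT positions in 40.9% of the genes, m6Anet in 41.2%, ELIGOS in 25.3% and xPore in 25.4%, and the comparison lists reached 8.06% to 10.5%. How many genes lacked all of these tools at once, as Skil, Smad2, Smad7 and Id1 did, was not counted. No position had more than 2 tools, and the first with 2 in WT on the transcript was 31117506, 248 nt before the stop codon, from Tombo and Epinano. All 29 listed positions lay from 433 nt before to 3949 nt after the stop codon, and the 45 RRACH 5-mers upstream of them were not listed. The listed positions of Smad2, by contrast, began 1360 nt before the stop codon and ended in the first part of the annotated 3′ UTR.

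Id1 (ENSMUSG00000042745, chromosome 2, 152736251 to 152737410, plus strand), an inhibitor of helix-loop-helix factors, had 3 WT or comparison positions, each from Epinano alone, and 4 KO positions, with Tombo at 3 and Epinano at 1. At 2 bases both libraries were listed, but by different tools. Id3 (ENSMUSG00000007872, chromosome 4, 136143497 to 136145755, plus strand), its relative, was in none of the 17 lists, although its transcript holds 25 RRACH 5-mers against 14 in Id1.

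By place on the transcript, 36 of 154 WT or comparison positions lay within 200 nt of the stop codon (23.4%, 17.4% to 30.7%), against 22.6% over all WT or comparison positions on coding transcripts. Of the RRACH 5-mers of the same transcripts, 16.8% lay in this window (member genes) and 12.8% over all genes with a listed position. For KO positions the share was 23.0% in the member genes and 21.2% over all positions. Of the 594 RRACH 5-mers in all exons of the 10 genes, 26.1% were listed in WT or comparison (22.7% to 29.8%), against 17% in all genes with a listed position. On the representative transcripts alone, the listed share was 41.6% in the coding sequence (all genes 25.8%), 33.8% in the 3′ UTR (all genes 24.7%) and 8.93% in the 5′ UTR (all genes 15.7%). The genes spread widely around these shares, from 81.1% of the RRACH 5-mers of the Lefty2 transcript and 75.0% for Nodal to 7.14% for Smad7 and 0 of 25 for Id3. These shares count a position whatever its support. Nanom6A listed 26 of the 30 Lefty2 positions in WT and 8 of the 21 Nodal positions.

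**Figure D4:**
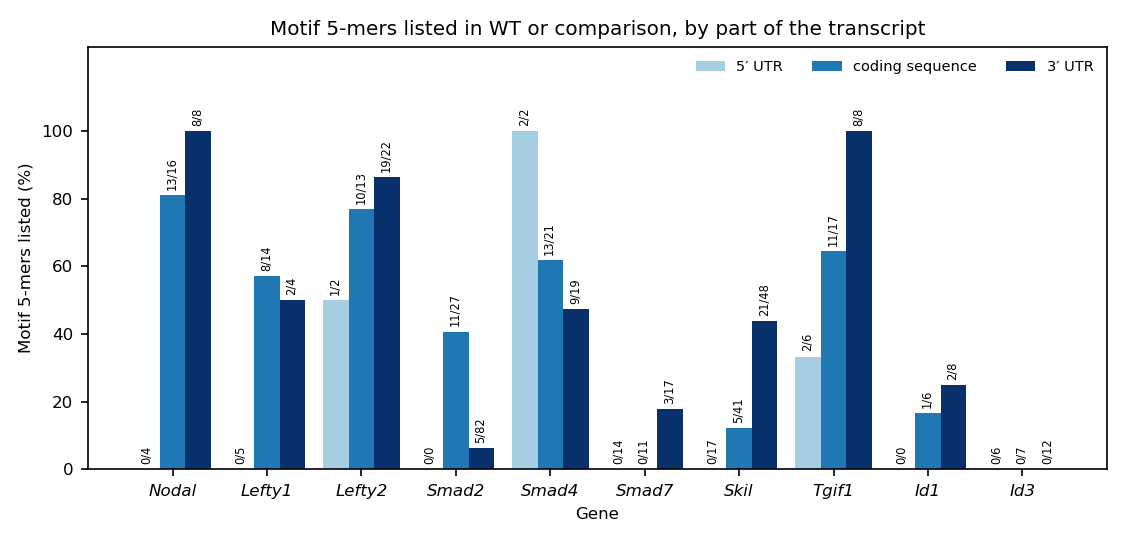
Share of RRACH motif 5-mers of the representative transcript that were WT or comparison positions (vertical axis, percent), for the 5′ UTR, the coding sequence and the 3′ UTR of each gene (horizontal axis), with the count listed over the count present above each bar. Nodal and Tgif1 have 8 of 8 listed in the 3′ UTR, while Smad2 has 5 of 82.

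Support was uneven among the genes. In all, 11 of the 155 WT or comparison positions were listed by at least 6 tools (7.10%, 4.01% to 12.3%), against 1.98% over all positions. The genes were chosen with these listings known and positions of 1 gene share reads, so the interval is descriptive. The 11 positions lay in Nodal (5), Tgif1 (4), Lefty2 (1) and Smad4 (1). A comparison list held positions of Nodal, Tgif1 and Lefty2, whereas 16.2% of all genes with a WT or comparison position had one in a comparison list. Of the 11 positions, 10 had a GGAC core (all positions with at least 6 tools, 81.7%), and the exception was Tgif1 70844396. Among positions with 1 tool, 18 of 94 had this core (19.1%, all positions 24.6%). A KO list held 6 of the 11 positions with at least 6 tools (54.5%, 28.0% to 78.7%), against 72.8% of all such positions. This interval too is descriptive and places the members neither above nor below that share. The other 5 were Nodal 61423472, Lefty2 180897978, Smad4 73640215, and Tgif1 70845075 and 70844396.

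**Figure D5:**
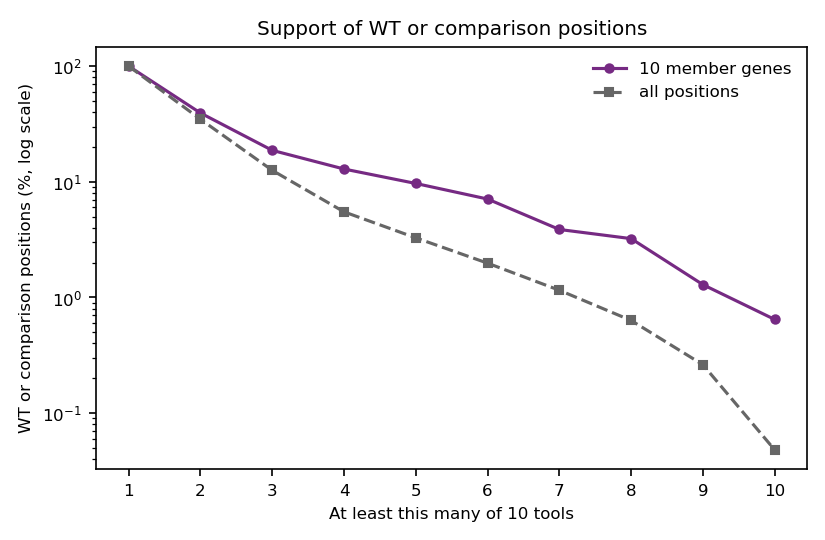
Share of WT or comparison positions listed by at least the given number of the 10 tools (vertical axis, percent on a log scale; horizontal axis, number of tools) for the 10 member genes and for all positions. At 6 tools the shares are 7.10% and 1.98%.

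By 5-mer, GGACA was the most frequent among the listed positions of the 10 genes, with 30 of 184 (16.3%, all positions 14.1%). AGACT had 21 (11.4%, all positions 8.67%) and GGACT had 20 (10.9%, all positions 11.02%). GGACT made up 10.97% of the WT or comparison positions (6.96% to 16.9%), against 11.9% over all. It was 17.2% of the positions in no KO list (9.64% to 28.9%), against 13.7% over all. A run of at least 5 equal bases stood within 10 bp of 12 of the 155 WT or comparison positions (7.74%, all positions 6.93%).

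A list of 62 other genes of the pathway set these genes beside their partners. Of the 62, 35 had a WT or comparison position, 34 had a KO position and 22 had neither. How many of all annotated genes had neither was not counted, so no background stands beside these counts. Of their 562 WT or comparison positions, 52.8% were also KO positions, against 59% over all positions. Positions with at least 6 tools were found in 4 of the 35 genes with a WT or comparison position, near the 15.3% over all such genes. The ligand Gdf3 had 5, Pcsk6, a convertase that cleaves Nodal, had 4, the phosphatase Ppm1a had 3, and the co-receptor Tdgf1 had 1. These 4 were also the genes of the list with a position in a comparison list. Among the genes with a KO share above that of all positions, those with most WT or comparison positions were the deubiquitinase Usp9x (44, of which 65.9% were also in KO), the ubiquitin ligase Wwp2 (37, 62.2%) and Pcsk6 (35, 68.6%). Among the genes below it they were Tdgf1 (34, 58.8%), the deubiquitinase Usp15 (27, 55.6%) and the ubiquitin ligase Smurf2 (26, 38.5%). Of the 11 receptor genes, 5 had WT or comparison positions, none with at least 6 tools. Of their 82 WT or comparison positions, 36.6% were also in KO (all positions 59%), and Bmpr1a contributed 20 of the 30 shared positions.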

How the data were processed

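Poly(A) RNA of WT and Mettl3 KO ESCs was sequenced by DRS, with 1 library each. The authors basecalled and aligned the reads, ran each tool, and deposited lists of genome positions (mm10, the GRCm38 build, per the labels). The deposited values are positions without score or coverage, and the numeric cut-off behind each list is not given in the sources used here. Per the methods, each tool's cut-off was tuned to the best F1 score against miCLIP and miCLIP2 maps of m6A. Per the methods, m6Anet asked for more reads per site than the other tools, so a gene with few reads can lack m6Anet listings, and MINES called only some of the RRACH 5-mers.

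From these lists, unique positions were placed on exons of GENCODE M21, a later release than the authors used, on the same build. Of 16356 listed transcript identifiers 16348 were found, and all 455 lines of the member genes that give a transcript position matched their listed base. The representative transcript was the coding one with the best APPRIS tag, then with most listed lines. Sequences were read from the RefSeq GRCm38.p6 genome. RRACH 5-mers were counted over genes with a listed position. Lefty1 and Lefty2 were aligned globally. Shares have Wilson intervals at 95%. Members and lists were chosen with earlier results of these data known. Positions to name were set as, per gene, those with most tools in WT or comparison and in KO, all with at least 6 tools and no KO listing, all in both libraries by at least 4 tools, and those in all 3 comparison lists. The top KO positions of Lefty1, Smad2 and Skil and both positions set for Id1 are not printed. Other positions were named after their values were seen. Counting was tested on simulated data. Python 3.11.15 was used with pandas 2.3.3, pysam 0.24.0, Biopython and matplotlib.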

Additional observations from a re-analysis of the deposited data

How the results depend on the processing

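No paired analysis was possible because each condition has 1 library and no test was made. Of 27 other settings, 18 left the value within 1.5 times (counts) or within its interval (shares). Without Tombo, KO positions fell from 126 to 77, the share of WT or comparison positions also in KO was 52.1%, and the listed share of RRACH 5-mers was 19.7%. Without Tombo and Nanom6A, 45 KO positions remained. Values over all positions without these tools are not given here, so the shares without Tombo have no background. Counting each line of a list gave 554 positions and 26 comparison listings. Windows of 100 and 400 nt around the stop codon held 12.3% and 40.9%. On representative transcripts alone, 33.7% of RRACH 5-mers were listed. The 11 positions with at least 6 tools became 14 with at least 5 of the 9 tools other than MINES and 11 with at least 5 of the 9 other than Tombo, so the threshold changed with the tool left out. The unknown depth per gene limits every comparison between genes and between libraries.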

Other observations

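Some pathway genes had listings in 1 library alone. Among the 62 other genes, KO positions without any WT or comparison position were found in the ligands Bmp4 (5) and Inhbb (7), in the BMP target Id2 (6), in the activin receptor Acvr2b (3) and in the activin antagonist Fst (1). KO positions alone were thus found in 5 of the 40 listed genes of this list (12.5%), against 10.2% of all 10912 listed genes. The reverse held for 9.42% of all listed genes, and in the pathway list such genes included Nedd4l (18), a ubiquitin ligase that acts on Smad proteins, Bmpr2 (7), Tgfb1 (5), Gdf1 (4) and Eomes (3). The read number of these genes in each library was not analysed here.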
